A study of Homo sapiens with 9 samples.

Results

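The subject is 9 genes of nuclear RNA processing measured in MOLM-13 cells: BCLAF1, its paralogue THRAP3, and their partners SNW1, PNN, ACIN1, RNPS1, SAP18, SRRM1 and SRRM2. They were chosen by symbol, and all 9 were found once each among the 56541 genes of the deposited table. MOLM-13 is a human acute myeloid leukaemia cell line. The shCONTROL group carried a control hairpin and the shBCLAF1 group a hairpin against BCLAF1, and both were profiled by RNA-seq of total RNA. The RIP group held RNA precipitated with BCLAF1 from shCONTROL cells, so it shares the hairpin genotype of the reference. Every group had received doxycycline for 4 days at 200 ng/uL, with 3 libraries in each. A larger number of cells went into each precipitated sample than into each RNA-seq sample. The labels name 1 hairpin label per group, do not say whether replicates were separate cultures, and name no mock precipitation. The p-values therefore measure only the spread between these libraries, which may be technical.

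BCLAF1 and THRAP3 are related nuclear proteins rich in arginine and serine that associate with spliceosomes and messenger ribonucleoprotein. Both have been purified with SNW1 (SKIP) and PNN (pinin) in an assembly named SNARP, which was described as acting on cyclin D1 mRNA. ACIN1 (acinus), RNPS1 and SAP18 form the ASAP complex, in which RNPS1 and SAP18 can instead pair with PNN as PSAP, and both complexes sit at the periphery of the exon junction complex. SRRM1 and SRRM2 are serine- and arginine-rich nuclear matrix proteins of the spliceosome, and SRRM2 is a scaffold of nuclear speckles.

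No value here reads a promoter. The bases just before the start of the paralogue pair are shown as background. Whether they bear on the change of either RNA was not tested, and BCLAF1 is the target of the hairpin. They come from RefSeq (GRCh38.p14), run 5′ to 3′ on the coding strand and end 1 base before the annotated start, with any searched motif in capitals. The 250 bases of BCLAF1 lie at chr6:136289847-136290096 on the minus strand. The 250 bases of THRAP3 lie at chr1:36224193-36224442 on the plus strand, inside the span of the gene, whose annotation begins further upstream.
BCLAF1: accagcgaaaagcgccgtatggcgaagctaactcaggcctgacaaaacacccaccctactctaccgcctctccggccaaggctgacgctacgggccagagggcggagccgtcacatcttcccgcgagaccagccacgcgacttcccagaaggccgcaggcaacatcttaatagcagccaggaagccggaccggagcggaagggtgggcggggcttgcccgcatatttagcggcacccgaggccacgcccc
THRAP3: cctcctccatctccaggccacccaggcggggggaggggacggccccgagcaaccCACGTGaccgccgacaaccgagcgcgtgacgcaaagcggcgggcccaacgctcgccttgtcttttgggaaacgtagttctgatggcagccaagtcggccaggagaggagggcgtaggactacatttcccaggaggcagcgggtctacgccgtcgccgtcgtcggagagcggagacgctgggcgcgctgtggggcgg
Of these 2 sequences, the one of BCLAF1 was 64.8% G or C and the one of THRAP3 68.8%, where the median of 27305 upstream regions of the same length was 58.0%. Sequences were matched for 8 of the 9 genes, and each motif was searched on both strands. The E-box letters CACGTG, in capitals above, stood 196 bases before the THRAP3 start, a motif held by 6.49% of all regions. The BCLAF1 region held none of the 4 motifs searched. The ETS core CCGGAAG, found in 8.82% of all regions, was in those of PNN and ACIN1. The ACIN1 region lay partly inside the annotated span of that gene, and the ETS match lay within the span. The CCAAT box, found in 33.0% of all regions and spelled as named, was in those of PNN, RNPS1 and SRRM1. The last motif, TATAAA, found in 11.1% of all regions, was in none of the 8 matched regions. No match overlapped another. These are matches of letters and no measure of binding.

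The libraries held 25819144 to 36635268 estimated counts. The 9 genes took 0.250% to 0.255% of the counts of control libraries, 0.233% to 0.242% of knock-down libraries and 0.369% to 0.454% of RIP libraries. All 10 myeloid leukaemia markers (CD33, FLT3, MPO, ELANE, AZU1, CSF1R, ITGAM, HOXA9, MEIS1 and SPI1) were above 3 counts in every library, with a summed level of 1970 to 2060 CPM (counts scaled to library size) in control, 2770 to 3040 in knock-down and 1660 to 1730 in RIP libraries. They did not move together: after knock-down 4 rose, AZU1 most (from 685 to 1416 CPM), while FLT3, HOXA9 and MEIS1 fell (log2 fold changes -0.18, -0.43 and -0.86). In the RIP 4 were lower, AZU1 and ELANE among them, and FLT3 and HOXA9 were higher (0.88 and 0.73). Of 5 markers of T and NK cells, 3 were at 0 in every library and the sum was 30.7 to 31.3 CPM in shCONTROL and 11.0 to 14.2 in the RIP. Of 4 B cell markers, 2 were at 0 throughout, and of 4 erythroid markers, 3 were. HBA1, the fourth erythroid marker, was at 0 in the RNA-seq and at 35 to 77 counts in the RIP. Of 5 stromal, endothelial and epithelial markers, 3 were at 0, and the sum of 183 to 195 CPM in shCONTROL and 417 to 662 in the RIP was nearly all PECAM1, which myeloid cells also express. The part of these shifts in the results was not tested. Counts are not scaled by transcript length, so levels are compared between groups and never between genes.

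**Figure D1:**
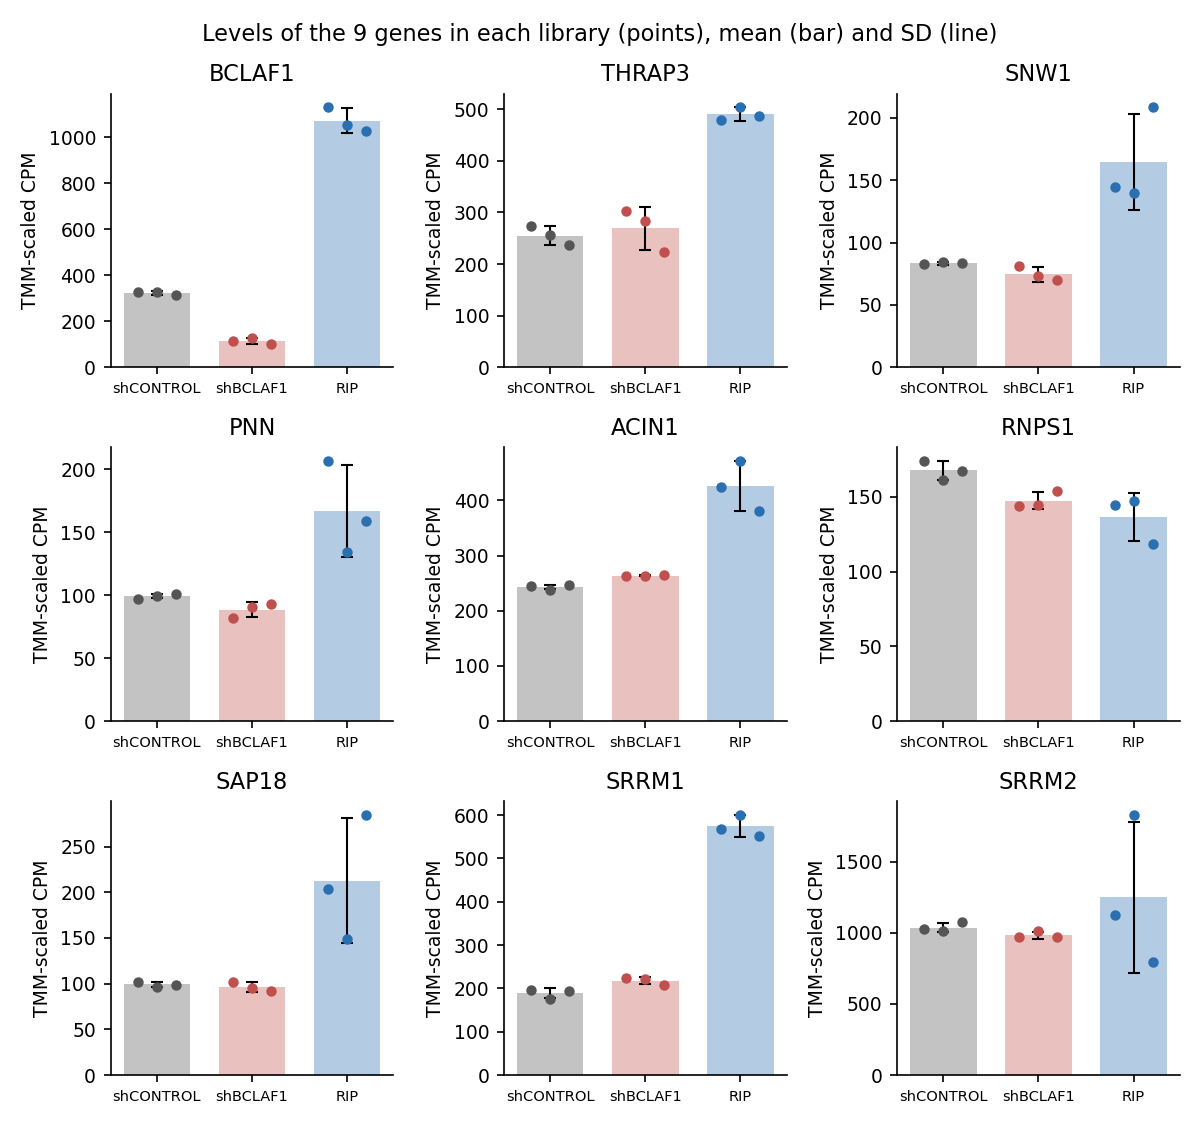
TMM-scaled CPM (vertical axis, from 0) of each of the 9 genes in shCONTROL, shBCLAF1 and RIP libraries, with points for libraries, bars for group means and lines for the SD (n = 3). BCLAF1 is low in all shBCLAF1 libraries (100.0 to 125 CPM) and high in all RIP libraries (1029 to 1134 CPM), while SNW1, SAP18 and SRRM2 spread widely among RIP libraries.

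The knock-down comparison asks which RNAs change when BCLAF1 is depleted. BCLAF1 fell to 35.3% of its control level, and no other member moved by more than 0.21 on the log2 scale. ACIN1 and SRRM1 rose slightly and RNPS1 fell slightly by the main test. THRAP3, SNW1, PNN, SAP18 and SRRM2 did not pass. Of the 9 genes, 2 rose and 2 fell past the threshold (adjusted p of 0.05), where 15.5% and 16.9% of the 16961 genes tested did (32.3% in either direction). The 2 that fell were RNPS1 and BCLAF1, and the fall of BCLAF1, the target of the hairpin, was set by the design. The median log2 fold change was -0.08 over the members and 0.02 over all genes tested. In bulk RNA a change in the RNA of each cell cannot be told apart from a change in the mix of cells.

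BCLAF1 (ENSG00000029363, chromosome 6, 136256627 to 136289846, minus strand; positions here are RefSeq's on GRCh38.p14) is the target of the hairpin. It measured 325, 329 and 313 CPM in shCONTROL replicates 1, 2 and 3, and 116, 125 and 100.0 in shBCLAF1 replicates 1, 2 and 3. Every knock-down library lay far under every control library, and replicate 3 was the lowest. The log2 fold change was -1.50 (standard error 0.085, adjusted p 2.06e-04), and 3.37% of tested genes had a change of larger size. Left with 114 ± 12.9 CPM (SD, n = 3), BCLAF1 RNA was reduced and not lost.

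The BCLAF1 pseudogenes were counted apart from the gene and were also lower after knock-down, BCLAF1P2 in near proportion to BCLAF1 and BCLAF1P1 by more. BCLAF1P2 measured 27.8 ± 1.14 CPM in control and 9.15 ± 0.476 CPM in knock-down libraries (SD, n = 3 each), which was 8.45% to 8.70% of the BCLAF1 counts in control libraries and 7.72% to 8.79% in knock-down libraries. Its share of BCLAF1 thus differed little between these groups. BCLAF1P1 held 78, 59 and 71 counts in shCONTROL and 0 in every shBCLAF1 library, at least 24.7-fold lower against a floor of 3 counts per library. Some genes of this table stand at 0 beside high replicates, so the bound holds for the deposited values only. Reads of near-identical copies cannot be assigned with certainty, and adding the pseudogene counts to BCLAF1 is among the alternatives.

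THRAP3 (ENSG00000054118, chromosome 1, 36207637 to 36305357, plus strand), the paralogue, did not fall with BCLAF1. It measured 273, 256 and 237 CPM with the control hairpin and 302, 283 and 223 CPM with the BCLAF1 hairpin, in replicate order. The groups overlapped, with shBCLAF1 replicate 3 the lowest of all 6 libraries, as it was for BCLAF1. THRAP3 had a log2 fold change of 0.08 (standard error 0.12, adjusted p 0.671), and it was -0.011 without shBCLAF1 replicate 1 and 0.20 as the highest value with 1 library left out. Its spread among knock-down libraries, a coefficient of variation of 15.3%, was the widest of the 9 genes in that group.

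The ratio of BCLAF1 to THRAP3 counts within a library does not depend on scaling. It was 1.19, 1.29 and 1.32 in shCONTROL and 0.385, 0.443 and 0.449 in shBCLAF1, in replicate order. The log2 ratio averaged 0.34 ± 0.079 and -1.24 ± 0.12 (SD, n = 3 each), a difference of -1.58, and the groups did not overlap. The exact two-sided permutation test gave p = 0.1, the smallest that 3 against 3 allow, and 0.1 after adjustment over the 2 comparisons of this ratio.

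**Figure D2:**
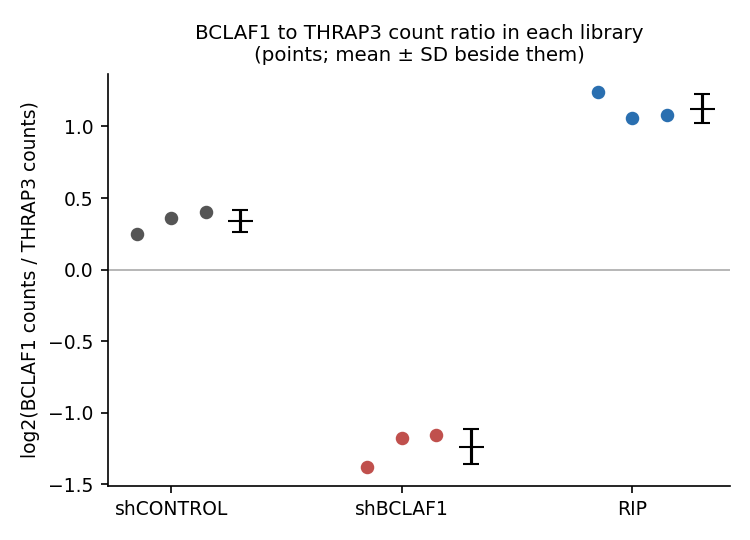
Log2 ratio of BCLAF1 to THRAP3 counts (vertical axis) in each library, with the mean and SD beside the points of each group (n = 3). The shBCLAF1 libraries lie between -1.38 and -1.16, the shCONTROL libraries between 0.25 and 0.40, and the RIP libraries between 1.06 and 1.24.

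Of the SNARP partners, SNW1 (ENSG00000100603, chromosome 14, 77717599 to 77761156, minus strand), a spliceosomal and transcriptional coregulator, measured 82.4, 84.8 and 83.5 CPM with the control hairpin and 81.0, 72.9 and 69.6 CPM with the BCLAF1 hairpin. PNN (ENSG00000100941, chromosome 14, 39175254 to 39183220, plus strand), a speckle and desmosome-associated splicing factor, measured 97.2, 99.8 and 101 CPM with the control hairpin and 81.7, 90.5 and 93.3 CPM with the BCLAF1 hairpin. In both genes every knock-down library lay under every control library, by margins smaller than the range within the knock-down group. On the log2 scale the changes were -0.17 for SNW1 (standard error 0.061, adjusted p 0.0902) and -0.16 for PNN (standard error 0.058, adjusted p 0.0787), and neither passed. SNW1 passed without shBCLAF1 replicate 1 (-0.23, adjusted p 0.0207) and PNN without shBCLAF1 replicate 3 (-0.21, adjusted p 0.0451) and with DESeq2 (0.0440). The antisense gene PNN-AS1 shares 627 bases with PNN, and whether counting used strand is not given in the sources used here. It held at most 40 counts in any library.

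BCLAF3, the remaining relative of BCLAF1 and THRAP3, measured 12.8 ± 0.379 CPM in control and 10.8 ± 1.14 CPM in knock-down libraries (SD, n = 3 each) and did not pass (log2 fold change -0.25, standard error 0.098, adjusted p 0.101). Without shBCLAF1 replicate 1 it passed (-0.34, adjusted p 0.0344).

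Of the ASAP proteins, ACIN1 (ENSG00000100813, chromosome 14, 23058564 to 23095614, minus strand), the RNA-binding scaffold, measured 244, 239 and 246 CPM with the control hairpin and 264, 263 and 264 CPM with the BCLAF1 hairpin. All knock-down libraries lay above all control libraries and had a coefficient of variation of 0.272%. The log2 fold change was 0.12 (standard error 0.030, adjusted p 0.0279). The call did not hold without shCONTROL replicate 1, 2 or 3 (adjusted p 0.0572, 0.0645 and 0.0749), without shBCLAF1 replicate 1 or 2 (0.0613 and 0.0785) and in a fit of all 9 libraries (0.457). ACIN1 overlaps 3 other annotated genes, among them the noncoding gene LOC124903288 over 3949 bases and C14orf119 over 110 bases, both on the plus strand.

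RNPS1 (ENSG00000205937, chromosome 16, 2253116 to 2268126, minus strand), the RNA-recognition subunit shared by ASAP and PSAP, measured 174, 161 and 168 CPM with the control hairpin and 144, 145 and 154 CPM with the BCLAF1 hairpin. The groups did not overlap, and the fall was 0.19 on the log2 scale (standard error 0.047, adjusted p 0.0273). This call did not hold without shCONTROL replicate 1, 2 or 3 (adjusted p 0.129, 0.0505 and 0.111), without shBCLAF1 replicate 1 or 2 (0.0788 and 0.0892), with total counts as scaling (0.0982) and in a fit of all 9 libraries (0.238). The pseudogene RNPS1P1, at 7.43% to 10.3% of the RNPS1 counts in RNA-seq libraries, had a log2 fold change of -0.22 (standard error 0.13, adjusted p 0.270). SAP18 (ENSG00000150459, chromosome 13, 21140119 to 21149097), the ubiquitin-fold subunit also known from histone deacetylase complexes, measured 102, 96.3 and 99.1 CPM with the control hairpin and 102, 95.03 and 91.8 CPM with the BCLAF1 hairpin. Its groups overlapped (log2 fold change -0.04, standard error 0.052, adjusted p 0.587), and the sign turned to 0.0076 with total counts as scaling.

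Of the nuclear matrix proteins, SRRM1 (ENSG00000133226, chromosome 1, 24643302 to 24673281, plus strand), a coactivator of splicing, measured 197, 175 and 194 CPM with the control hairpin and 223, 222 and 208 CPM with the BCLAF1 hairpin. Every knock-down library lay above every control library, and the rise of 0.21 on the log2 scale (standard error 0.057, adjusted p 0.0345) was the largest upward change of the 9. The call did not hold without shCONTROL replicate 3 (adjusted p 0.0702), without shBCLAF1 replicate 1 or 2 (0.0971 and 0.106) and in a fit of all 9 libraries (0.117). SRRM2 (ENSG00000167978, chromosome 16, 2752638 to 2771412, plus strand), the speckle scaffold, measured 1024, 1015 and 1073 CPM with the control hairpin and 968, 1013 and 968 CPM with the BCLAF1 hairpin. The groups were separated only by the gap between 1013 and 1015 CPM, and the log2 fold change of -0.08 (standard error 0.039, adjusted p 0.191) did not pass. The antisense gene SRRM2-AS1, at 3.32 ± 0.265 CPM in control and 4.41 ± 0.910 CPM in knock-down libraries (SD, n = 3 each), did not pass either (adjusted p 0.138).

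Groups did not overlap for 7 of the 9 genes after knock-down, where 49.3% of all genes tested had such a separation. The 7 include BCLAF1, the target of the hairpin. Without BCLAF1 the summed level of the other 8 genes was 2174 ± 40.8 CPM in control and 2141 ± 59.6 CPM in knock-down libraries (SD, n = 3 each). That sum differed by less than the spread between libraries, but rises and falls of single genes offset each other in it. SRRM2 made up 41.6% of the summed CPM of all 9 genes in control and 43.6% in knock-down libraries. That share depends on transcript length, so it describes the sum and does not rank the genes.

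**Figure D3:**
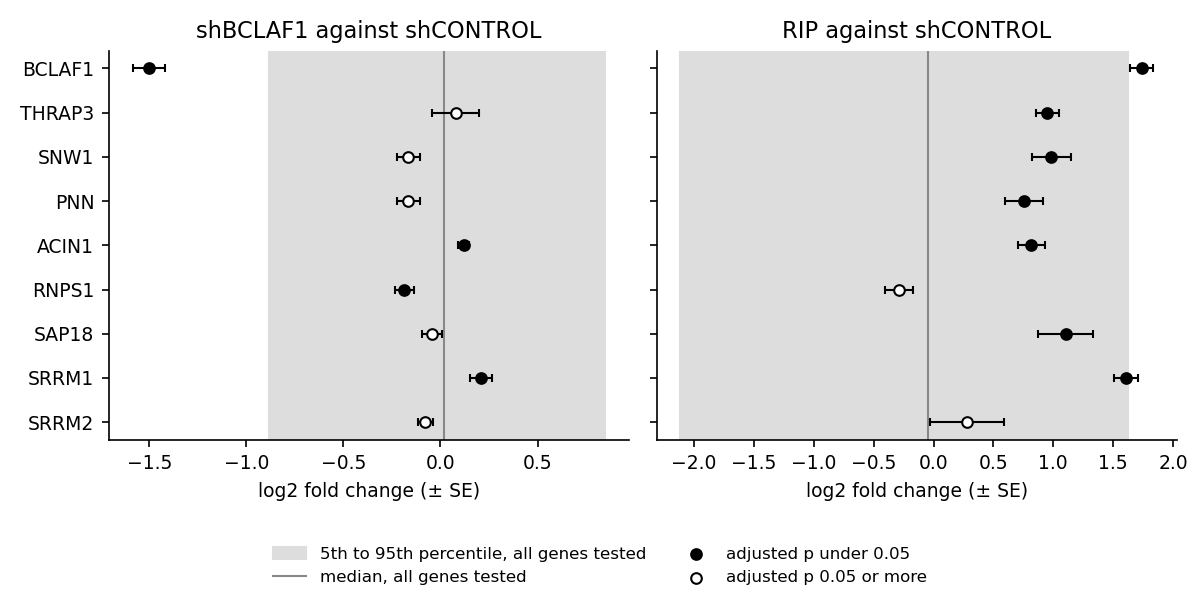
Log2 fold change with its SE (horizontal axis) of the 9 genes after knock-down (left) and in the RIP (right), filled where the adjusted p was under 0.05, over the 5th to 95th percentile band and the median of all genes tested. BCLAF1 (-1.50) lies outside the band after knock-down, and the changes of the other genes stay between -0.19 and 0.21. In the RIP, BCLAF1 (1.74) lies above the band and SRRM1 (1.61) near its upper edge.

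The precipitation addresses which RNAs come down with BCLAF1 protein in excess of their share of total RNA. BCLAF1 and SRRM1 mRNA stood at 332% and 304% of their shCONTROL level in the RIP, and THRAP3, SNW1, PNN, ACIN1 and SAP18 mRNAs were higher by 0.76 to 1.10 on the log2 scale. RNPS1 and SRRM2 did not pass. Of the 9 genes 7 passed upwards and 0 downwards by edgeR, where 24.6% of the 16727 genes tested were higher and 24.7% lower (49.2% in either direction). At an unadjusted p under 0.05 the number lower was 1 (RNPS1, p 0.0438), and DESeq2 called RNPS1 lower. When a minimum log2 fold change of 1 was also required, 3 were enriched (BCLAF1, SRRM1 and SAP18), against 11.0% of all genes. The median log2 fold change was 0.95 over the members and -0.05 over all genes tested. The reference was total RNA, so recovery with BCLAF1 cannot be told apart from background of the precipitation.

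BCLAF1 measured 1134, 1053 and 1029 CPM in RIP replicates 1, 2 and 3, or 332% of shCONTROL. All 3 lay above the 329 CPM of the highest control library. The log2 fold change was 1.74 (standard error 0.095, adjusted p 2.19e-04), and 4.05% of tested genes were higher. BCLAF1P2 stood at 119 ± 2.35 CPM (SD, n = 3), higher than in control libraries by 2.11 on the log2 scale (standard error 0.075). Its counts made up 10.6% to 11.5% of those of BCLAF1 in the RIP, above the 8.45% to 8.70% of control libraries.

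THRAP3 measured 480, 505 and 487 CPM in the RIP, with the narrowest spread of the 9 genes there (coefficient of variation 2.66%). Each library lay well above the 273 CPM of the highest control library. The log2 fold change was 0.95 (standard error 0.096, adjusted p 7.00e-04), under the minimum of 1 for enrichment, which it reached without shCONTROL replicate 1 (1.01). The ratio of BCLAF1 to THRAP3 counts was 2.36, 2.08 and 2.11 in the RIP, against 1.19 to 1.32 in shCONTROL. The log2 ratio was 0.34 ± 0.079 in control and 1.13 ± 0.099 in RIP libraries (SD, n = 3 each), without overlap (exact permutation p = 0.1, the smallest possible, and 0.1 after adjustment). The ratio itself, averaged on the log2 scale, was 1.73-fold higher in the RIP. BCLAF3 was also higher in the RIP, at 22.9 ± 0.187 against 12.8 ± 0.379 CPM (log2 fold change 0.84, standard error 0.089, adjusted p 8.06e-04).

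SNW1 measured 145, 140 and 209 CPM in the RIP and PNN 207, 135 and 159, in replicate order. The libraries disagreed on which was highest: replicate 3 for SNW1 and replicate 1 for PNN, and even the lowest value of each lay above all control libraries. The log2 fold changes were 0.98 for SNW1 (standard error 0.16, adjusted p 0.00391) and 0.76 for PNN (standard error 0.16, adjusted p 0.00960). Without RIP replicate 3 that of SNW1 was 0.78, and without RIP replicate 1 or 2 it was 1.07 and 1.08, past the minimum of 1.

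The ASAP subunits parted in the RIP. ACIN1 measured 425, 472 and 381 CPM, all above the 246 CPM of the highest control library, with a log2 fold change of 0.82 (standard error 0.11, adjusted p 0.00187). SAP18 measured 204, 149 and 285 CPM, against at most 102 in shCONTROL, with a log2 fold change of 1.10 (standard error 0.23, adjusted p 0.00855). RIP replicate 3 was the highest library for SAP18, as it was for SNW1, and without it the log2 fold change of SAP18 was 0.84, under the minimum of 1, as it also was with total counts as scaling (0.99). Against a null of a log2 fold change of 1, SAP18 did not pass (adjusted p 0.585). RNPS1 measured 144, 147 and 118 CPM in the RIP, each under the 161 CPM of the lowest control library. Its log2 fold change of -0.29 (standard error 0.11, adjusted p 0.0806) did not pass in the main fit. It passed with DESeq2 (adjusted p 0.0241), with total counts (0.0347) and in a fit of all 9 libraries (0.0340). The other 13 of 16 alternatives kept the main call. With pseudogene counts added, the log2 fold change of RNPS1 was -0.24 (adjusted p 0.109). RNPS1P1 itself went the other way (0.21, adjusted p 0.162). Its counts were 10.7% to 14.7% of those of RNPS1 in the RIP, against 8.42% to 9.03% in shCONTROL.

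SRRM1 measured 569, 601 and 551 CPM in the RIP, or 304% of shCONTROL, whose highest library had 197. SRRM1 had a log2 fold change of 1.61 (standard error 0.10, adjusted p 2.38e-04), and 5.09% of tested genes were higher. SRRM2 measured 1125, 1831 and 793 CPM, so the RIP libraries lay on both sides of the control range of 1015 to 1073. The log2 fold change was 0.28 (standard error 0.31, adjusted p 0.481), and it was -0.11 without RIP replicate 2. The coefficient of variation of SRRM2 among RIP libraries was 42.4%, against 2.97% among shCONTROL libraries. For comparison, the median over 13746 genes with a mean of at least 50 counts was 17.6% in the RIP and 6.07% in shCONTROL.

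Control and RIP values did not overlap for 8 of the 9 genes in the RIP (SRRM2 was the exception), where 67.1% of all genes tested did not. With total counts in place of TMM scaling the median of all genes moved by -0.11 on the log2 scale. Relative to the median of all genes, BCLAF1 stood at 1.79 under either scaling, SRRM1 at 1.66, THRAP3 at 1.00 and RNPS1 at -0.24. Subtracting that median removes a shift shared by all genes, so the scalings agree here nearly by construction. The knock-down and the RIP share the shCONTROL libraries, so their changes are not independent of each other.

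The patterns of the 9 genes over the 9 libraries were compared by the root-mean-square difference of their mean-centred log2 CPM, which is 0 for identical patterns. The nearest pair was SNW1 and SAP18 (0.12), followed by THRAP3 and ACIN1 (0.16) and THRAP3 and SNW1 (0.21). BCLAF1 was the target of the hairpin in 3 of the 9 libraries, so its distances include that depletion. It stood apart, at 0.85 from SRRM1 as its nearest member and at 1.39 from RNPS1. THRAP3, its paralogue, was at 0.99, and 15.5% of the 11854 candidate genes were nearer to BCLAF1 than THRAP3 was. The points share libraries, and the distances describe the data without a test.

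**Figure D4:**
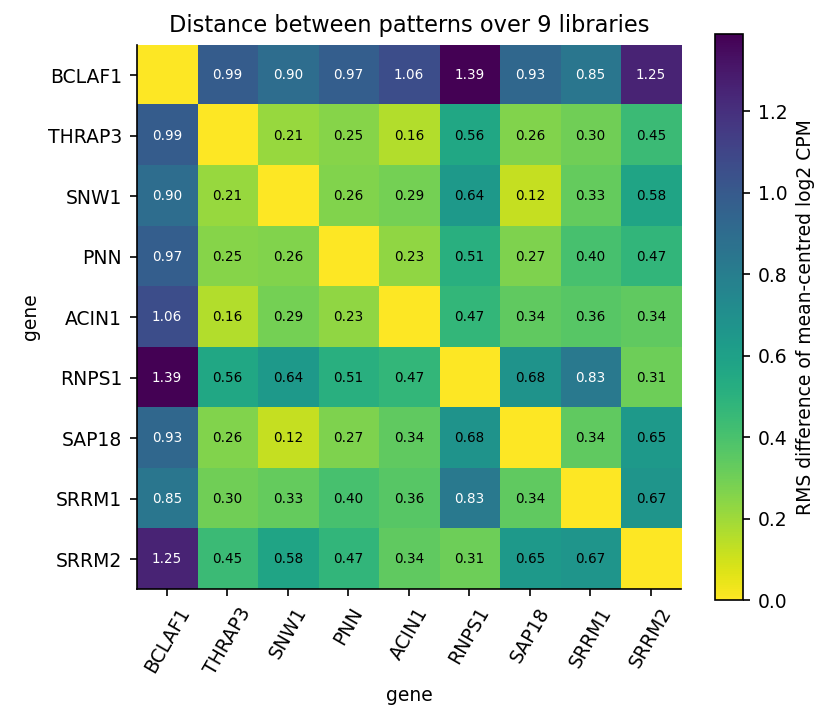
Root-mean-square difference of mean-centred log2 CPM over 9 libraries between each pair of the 9 genes, printed in each cell (dark is far, light is near). The BCLAF1 row is dark throughout (0.85 to 1.39), and SNW1 with SAP18 (0.12) is the lightest pair.

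The 5 genes nearest to BCLAF1 by this measure were C11orf24 (0.22), JDP2 (0.23), BATF3 (0.29), SEPTIN5 (0.30) and LINC01686 (0.31). C11orf24 measured 33.4 ± 1.95 CPM in control, 13.4 ± 0.393 in knock-down and 91.5 ± 10.5 in RIP libraries (SD, n = 3 each). JDP2, a bZIP repressor of AP-1 sites, measured 33.6 ± 1.65, 9.83 ± 0.711 and 99.7 ± 24.3 CPM. BATF3, another bZIP factor, measured 14.5 ± 0.682, 4.13 ± 0.268 and 32.4 ± 4.09 CPM. All of these genes were thus low where BCLAF1 was low and high where it was high, which is what the rule selected.

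Around the 9 genes, lists of partner genes were counted in the same fits, beside the same background of 15.5% higher and 16.9% lower after knock-down and 24.6% and 24.7% in the RIP. The exon junction complex core, which marks spliced mRNA and anchors ASAP and PSAP, had 2 of 5 genes lower and 0 higher after knock-down (median log2 fold change -0.15). RBM8A, which pairs with MAGOH, fell by 0.45 (standard error 0.056, adjusted p 0.00200), from 71.7 ± 3.39 to 52.3 ± 2.37 CPM (SD, n = 3 each). In a fit of all 9 libraries RBM8A did not pass (adjusted p 0.0576). CASC3 fell by 0.15 (adjusted p 0.0369), a call lost in 5 of the 6 fits without 1 library, all but the one without shBCLAF1 replicate 1 (adjusted p 0.0520 to 0.114). It was also lost with total counts as scaling (0.0647) and in the fit of all 9 libraries (0.520). In the RIP 2 of 5 were higher, RBM8A by 0.73 (adjusted p 0.00939) and CASC3 by 0.64 (0.0166). The call of CASC3 was lost without shCONTROL replicate 1, 2 or 3 (0.0561, 0.0618 and 0.0641).

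Of 10 genes of nonsense-mediated decay, which reads the exon junction complex, 1 was lower and 0 higher after knock-down, and 5 were higher and 2 lower in the RIP. UPF2 fell by 0.21 (adjusted p 0.0147), a call lost without shCONTROL replicate 3 (0.0634) and in a fit of all 9 libraries (0.268), and was enriched in the RIP by 1.11 on the log2 scale (standard error 0.13, adjusted p 0.00123). SMG1, the kinase of UPF1, measured 271 ± 6.91 CPM in control and 537 ± 60.1 CPM in RIP libraries (SD, n = 3 each). Its log2 fold change was 0.997 (standard error 0.11, adjusted p 0.00102), just under the minimum of 1 for enrichment.

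Of 18 genes of TREX and mRNA export, 7 were lower and 1 higher after knock-down (median -0.20), and 8 were higher and 4 lower in the RIP. The cap-binding subunits NCBP1 and NCBP2 fell by 0.29 each (adjusted p 0.00259 and 0.00334), NCBP1 from 125 ± 1.14 to 102 ± 3.80 CPM (SD, n = 3 each), and POLDIP3 fell by 0.27 (0.00590). In a fit of all 9 libraries NCBP1 (adjusted p 0.0705) and POLDIP3 (0.134) did not pass. In the RIP, the helicase gene DDX39B stood at 1223 ± 36.7 CPM against 616 ± 18.0 in shCONTROL (log2 fold change 0.99, standard error 0.095, adjusted p 6.05e-04), and the export receptor gene NXF1 was enriched by 1.10 (5.07e-04). The adaptor gene ALYREF was depleted instead, from 96.1 ± 10.6 to 35.9 ± 3.97 CPM (SD, n = 3 each; log2 fold change -1.42, standard error 0.13, adjusted p 5.40e-04).

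Of 18 genes of the PRP19 complex and other spliceosomal neighbours of SNW1, 5 were lower and 2 higher after knock-down, and 10 were higher and 4 lower in the RIP (median 0.68). SYF2 fell from 33.1 ± 0.872 to 16.4 ± 0.383 CPM (SD, n = 3 each; log2 fold change -1.01, standard error 0.055, adjusted p 2.00e-04), the largest change on these lists among genes that passed after knock-down. CRNKL1 fell by 0.44 (adjusted p 5.22e-04) and ISY1 rose by 0.47 (0.00608), which was lost in a fit of all 9 libraries (0.0644). In the RIP, RNF113A was enriched by 1.97 (standard error 0.17, adjusted p 4.81e-04) and CWC22 by 1.19 (2.38e-04), while PRPF19, the ubiquitin ligase of the complex, was depleted by a log2 fold change of -1.08 (4.83e-04). Of 5 genes of the complex described between BRCA1 and BCLAF1, PRPF8 alone passed after knock-down, falling by 0.22 (adjusted p 0.0289). That call did not hold without shCONTROL replicate 1 or 3 (0.0912 and 0.0786), without shBCLAF1 replicate 2 (0.0631) and in a fit of all 9 libraries (0.331). SF3B1 (0.80, adjusted p 0.00263) and U2AF2 (0.43, 0.0187) were higher in the RIP, the latter not without shCONTROL replicate 1, 2 or 3 (0.0631, 0.0821 and 0.0602).

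The SR proteins and their kinases were the nearest lists for comparison. After knock-down 3 of 11 tested SR protein genes rose and 3 fell, among them SRSF4 (rise of 0.32, adjusted p 0.00185), SRSF10 (fall of 0.29, 0.00589) and SRSF1 (fall of 0.21, 0.00683). In a fit of all 9 libraries SRSF10 (0.117) and SRSF1 (0.247) did not pass. Of 8 tested kinase genes 2 rose and 2 fell, with DYRK1A and CLK3 higher by 0.22 and 0.21 (adjusted p 0.00666 and 0.00682) and SRPK2 lower by 0.40 (0.0187). DYRK1A (0.163) and CLK3 (0.120) failed once all 9 libraries were fitted together. The call of SRPK2 was lost without shCONTROL replicate 1 or 2 or shBCLAF1 replicate 2 or 3 (0.0591, 0.0526, 0.0589 and 0.0528). In the RIP 7 of 11 SR protein genes were higher and 1 lower (median 0.32), and 7 of 9 kinase genes were higher and 0 lower (median 1.03, with 0.95 for the 9 genes described). SRPK2 was enriched by 1.43 (adjusted p 2.24e-04), CLK1 by 1.22 (0.00121), CLK2 was higher by 0.97 (7.93e-04) and SRSF9 was enriched by 1.30 (0.00199). SRSF10 (0.51, adjusted p 0.0145) and SRSF11 (0.66, 0.0141) were higher, SRSF10 not without shCONTROL replicate 1, 2 or 3 (0.0547, 0.0598 and 0.0633) and SRSF11 not without shCONTROL replicate 1 or 3 (0.0564 and 0.0620). Neither passed with total counts as scaling (0.0667 for SRSF10 and 0.0529 for SRSF11). Whether the lists differ from the 9 genes was not tested.

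**Figure D5:**
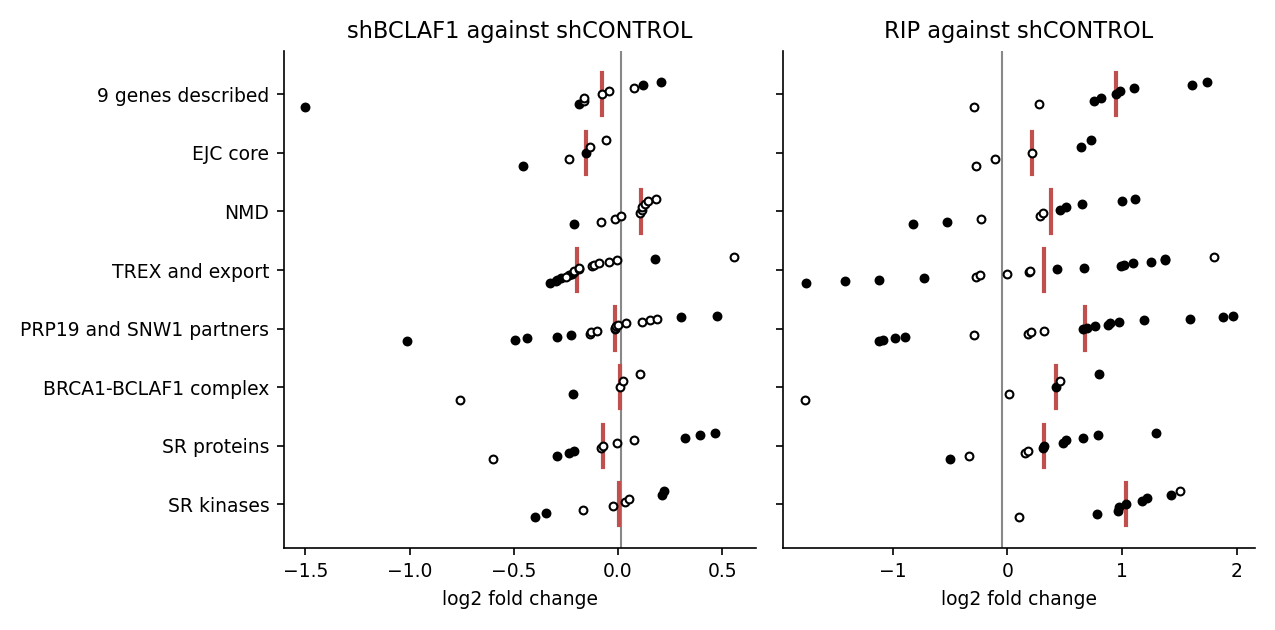
Log2 fold change (horizontal axis) of each gene tested in the 9 genes described and in 7 lists of partners, after knock-down (left) and in the RIP (right), filled where the adjusted p was under 0.05. Red marks are list medians and the grey line the median of all genes tested. In the RIP the medians run from 0.21 (EJC core) to 1.03 (SR kinases), all above the median of all genes (-0.05).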

How the data were processed

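For 9 RNA-seq and RIP libraries the authors made and deposited estimated counts of each gene, which they left unscaled. Per the submitters' processing notes the build was hg38 and the tools were STAR 2.7.11b and StringTie 2.2.3. How counts were derived, and with which annotation, is not given in the sources used here. The values were whole and were not rounded further. The entry that names no gene (2.18% to 3.75% of counts in 8 libraries) was left out. Replicates of a group differed by far more than counting noise.

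The knock-down and the RIP were each fitted on their own 6 libraries across all genes with edgeR 4.0.16 in R 4.3.3: default filter on low counts, TMM scaling, prior count of 2, quasi-likelihood F-test, and Benjamini-Hochberg adjustment over all genes tested, with a threshold of 0.05. SE was derived from the coefficient and its F statistic. Printed CPM are scaled by TMM over all 9 libraries. The fits were tested on simulated data, with an outcome that is not reported here. Partner genes were named by the 3 smallest adjusted p under 0.05 per list, with BCLAF3 always named, and likeness to BCLAF1 was computed for genes above 0 in every library with a mean of at least 50 counts. The members and lists were chosen with earlier results of these data known. Alternatives were other scalings (also DESeq2 1.42.0), filters, fits and single libraries left out, limma 3.58.1 with voom, and added pseudogene counts. Protein sequences were not used here, and some partner genes are not reported here.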

Additional observations from a re-analysis of the deposited data

How the results depend on the processing

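Over all alternatives run, BCLAF1 kept its fall after knock-down (-1.58 to -1.42) and its rise in the RIP (1.63 to 1.77), and 7 members were higher in the RIP in each fit that tests against no change, with 2 to 4 of them enriched. The log2 difference of the BCLAF1 to THRAP3 ratio ran from -1.62 to -1.51 and from 0.73 to 0.82. With all 9 libraries fitted together, 1129 genes rose and 1318 fell after knock-down, with 0 members higher and 1 lower: ACIN1 (0.12, adjusted p 0.457), RNPS1 (-0.19, 0.238) and SRRM1 (0.20, 0.117) did not pass. RNPS1 was then -0.28 in the RIP and passed, with 1 member lower. With total counts RNPS1 was -0.13 after knock-down (0.0982), leaving 1 member lower, SAP18 turned to 0.0076, and RNPS1 in the RIP was -0.40, with 1 member lower. With DESeq2 PNN passed after knock-down (-0.17, 0.0440) and RNPS1 in the RIP (-0.28), with 1 member lower. Against a log2 fold change of 1, 732 genes were enriched and 1142 depleted, and SAP18 (1.10) did not pass. The cause of these shifts was not tested.

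With 1 library left out, members higher after knock-down ran from 0 to 2 and members lower from 1 to 3. The log2 fold changes after knock-down ran from 0.11 to 0.14 for ACIN1, -0.22 to -0.14 for RNPS1, 0.16 to 0.25 for SRRM1, -0.011 to 0.20 for THRAP3, -0.23 to -0.12 for SNW1 and -0.21 to -0.11 for PNN. That of SRRM2 in the RIP ran from -0.11 to 0.53. A fit without 1 library assumes a common spread and has fewer samples.

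Deviations of same-numbered libraries correlated at -0.0028 to 0.098 (knock-down) and -0.036 to 0.0043 (RIP). With 3 libraries in a group, these correlations cannot decide whether the shared replicate numbers pair the samples. With the replicate block, 0 members were higher and 1 lower after knock-down, and ACIN1 (0.12, adjusted p 0.0567), RNPS1 (-0.19, 0.0545) and SRRM1 (0.21, 0.0696) did not pass. The best match was the own number for 1 of 6 comparisons. Of the calls on partner genes chosen by the naming rule and the 5 genes nearest to BCLAF1, 9 of 22 after knock-down held in every alternative run, and 18 of 22 in each fit without 1 library. In the RIP 21 of 26 held in every alternative. The 5 nearest genes were selected for this pattern in these same libraries. Their calls held in every alternative in both comparisons, which raises these counts.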
